A study of Mus musculus with 6 samples.

Results

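Alternative activation markers are genes that macrophages switch on when they meet interleukin-4 or interleukin-13, and 9 of them were followed here among the 55291 genes of the table: the receptor gene Il4ra, the lectin receptor genes Mrc1, Clec10a and Mgl2, the secreted effector genes Chil3, Retnla and Ear2, and the chemokine genes Ccl17 and Ccl22. They were selected by symbol, and all 9 were found. Transcript levels came from 6 poly(A) RNA libraries of mouse bone marrow-derived macrophages (BMDM), which are phagocytes grown in culture from marrow precursors. Untreated cells gave 3 libraries, and cells that had received apoptotic cells (AC) beforehand gave the other 3. The comparison between them asks whether contact with dying cells goes with a change in these transcripts. Mouse strain, genotype and age, the source, dose and timing of the apoptotic cells, and whether replicates came from separate cultures are not stated in the labels used here. A p-value therefore reflects how far these 6 libraries vary, and that variation may be technical. The labels used here name no cytokine treatment in either group.

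In this pathway interleukin-4 or interleukin-13 binds a receptor that contains the Il4ra chain, Janus kinases attached to the receptor phosphorylate the transcription factor STAT6, and STAT6 turns on target genes. In mouse macrophages the best known targets are the mannose receptor gene Mrc1, the chitinase-like gene Chil3, Retnla and Arg1. Engulfment of apoptotic cells is known to act together with interleukin-4 in switching on part of this programme.

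The members fell into 3 tiers that both groups shared. Mrc1 and Il4ra were abundant, at means of 325 and 292 TPM over the 6 libraries, above 96.3% and 95.9% of the genes tested. TPM is the length-scaled share of all transcripts, with each library set to sum to 1000000, so levels of different genes can be compared on it. Clec10a, Chil3 and Ear2 were lower, at means of 13.6, 5.67 and 2.65 TPM, above 47.7%, 28.7% and 14.9% of the genes tested. Ccl22 and Mgl2 stood below 1 TPM in every library, at means of 0.712 and 0.332 TPM, and Retnla and Ccl17 had no read in any library. The ranges over the 6 libraries overlapped for the neighbours Mrc1 and Il4ra, and for Ccl22 and Mgl2. Between the other neighbours with reads, every library of the higher gene was above every library of the lower one. For Chil3 and Ear2 the margin was narrow, with a lowest Chil3 value of 3.74 TPM and a highest Ear2 value of 3.67 TPM. That Ear2 value came from AC replicate 2, where 3 reads were worth 0.611 TPM.

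The stretches of DNA before the starts of the 2 silent members are shown beside those of the 2 most abundant ones, since STAT6 is known to bind the letters TTCNNNNGAA. Of the 9 members 8 matched an entry of the RefSeq promoter table (GRCm38.p6, the assembly of mm10), and the 250 bases before each start were searched. The motif reads alike on both strands. Retnla and Ccl17 held it, alone among the 8, and 5.89% of 32536 windows of that length did. In Ccl17 it began 154 bases before the start. In Retnla it began 145 bases before the RefSeq start and 87 bases before the earlier GENCODE start at which the printed stretch ends, and the bases after this RefSeq start matched 0 GENCODE transcripts. The form with a shorter spacer, TTCNNNGAA, was found 172 bases before the Chil3 start and 99 bases before the Ccl17 start, and in 7.04% of the windows. Matches to the 2 forms did not overlap in Ccl17. Each stretch is printed 5′ to 3′ on the plus strand up to the earliest annotated start, with motif matches in capitals. They cover chr16:48842359-48842550 (Retnla), chr8:94810203-94810452 (Ccl17), chr2:14229164-14229391 (Mrc1) and chr7:125552021-125552119 (Il4ra).
Retnla: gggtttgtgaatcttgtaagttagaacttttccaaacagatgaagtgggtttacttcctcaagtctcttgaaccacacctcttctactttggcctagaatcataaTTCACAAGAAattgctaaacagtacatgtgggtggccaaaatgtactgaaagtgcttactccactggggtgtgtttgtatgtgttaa
Ccl17: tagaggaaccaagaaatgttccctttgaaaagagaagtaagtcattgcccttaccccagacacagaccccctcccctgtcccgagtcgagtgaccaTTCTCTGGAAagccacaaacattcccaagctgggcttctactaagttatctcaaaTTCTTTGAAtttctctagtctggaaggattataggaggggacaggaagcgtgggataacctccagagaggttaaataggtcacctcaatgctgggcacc
Mrc1: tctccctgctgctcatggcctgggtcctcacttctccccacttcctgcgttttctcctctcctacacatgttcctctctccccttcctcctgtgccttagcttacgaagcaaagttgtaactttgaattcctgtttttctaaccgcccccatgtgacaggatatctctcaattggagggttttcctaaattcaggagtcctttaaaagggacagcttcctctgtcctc
Il4ra: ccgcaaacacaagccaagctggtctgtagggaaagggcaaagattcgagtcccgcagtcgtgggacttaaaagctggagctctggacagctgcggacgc
A match is a description of the letters and not evidence of binding. Reads were absent for both members that held the longer-spaced form, and nothing about the factor follows from this.

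Several facts about the libraries stand beside all results. Depth, recovered from the deposited values, was 19330345 to 32649083 reads on genes, with untreated replicates 2 and 1 and AC replicate 1 the deepest. The 8 macrophage markers summed to 24002 to 24671 TPM in untreated replicates 2 and 3 and to 22746 to 26498 TPM in AC libraries. Untreated replicate 1 stood apart at 16470 TPM, since the lysozyme gene Lyz2 was at 83.7 TPM there and at 9270 to 12451 TPM in the other 5 libraries. Without that library the log2 differences of Il4ra, Mrc1, Chil3, Clec10a and Ear2, AC minus untreated, were -0.15, 0.015, 0.034, 0.21 and 0.48, where those with all libraries were -0.26, -0.06, -0.21, 0.28 and 0.50. Transcripts of trophoblast cells, a placental cell type, were found in replicates 1 and 2 of both groups, with the listed markers summing to 16.4 and 35.2 TPM without AC, to 32.1 and 151 TPM with AC, and to 0 in replicate 3 of both groups. The 5 erythroid markers followed the same split, at 1.65 to 17.5 TPM in replicates 1 and 2 and at 0.0652 and 0.357 TPM in replicate 3. The 5 epithelial markers summed to 0.650 to 1.71 TPM in untreated and 2.10 to 5.09 TPM in AC libraries without overlap. Krt8 and Krt18 were higher in every AC library. Among all genes tested 0.936% had AC libraries higher without overlap, and 4.42% had no overlap in either direction. Krt8 was tested, while Krt18 was too low for the test, so these shares do not cover it. Krt19 overlapped between the groups, and Epcam had 0 TPM in all libraries. Cdh1 went the other way, with means of 0.585 TPM in untreated and 0.303 TPM in AC libraries. The part of these transcripts in the members' values was not tested. AC replicate 1 was low and AC replicate 3 high for genes with long transcripts. The median centred log2 level of the 4547 tested genes with at least 5000 exon bases, minus that of the 2956 with at most 2000, was -0.46 and 0.31 in those libraries and -0.09 to 0.08 in the other 4. No gene of 12603 passed the test between the groups (0% called by limma-trend with an adjusted p under 0.05, 164 at an unadjusted p under 0.05, and 0 called by limma-voom on recovered reads with 99 at an unadjusted p under 0.05). On the log2(TPM + 1) scale the median difference over all genes, AC minus untreated, was -0.07.

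**Figure D1:**
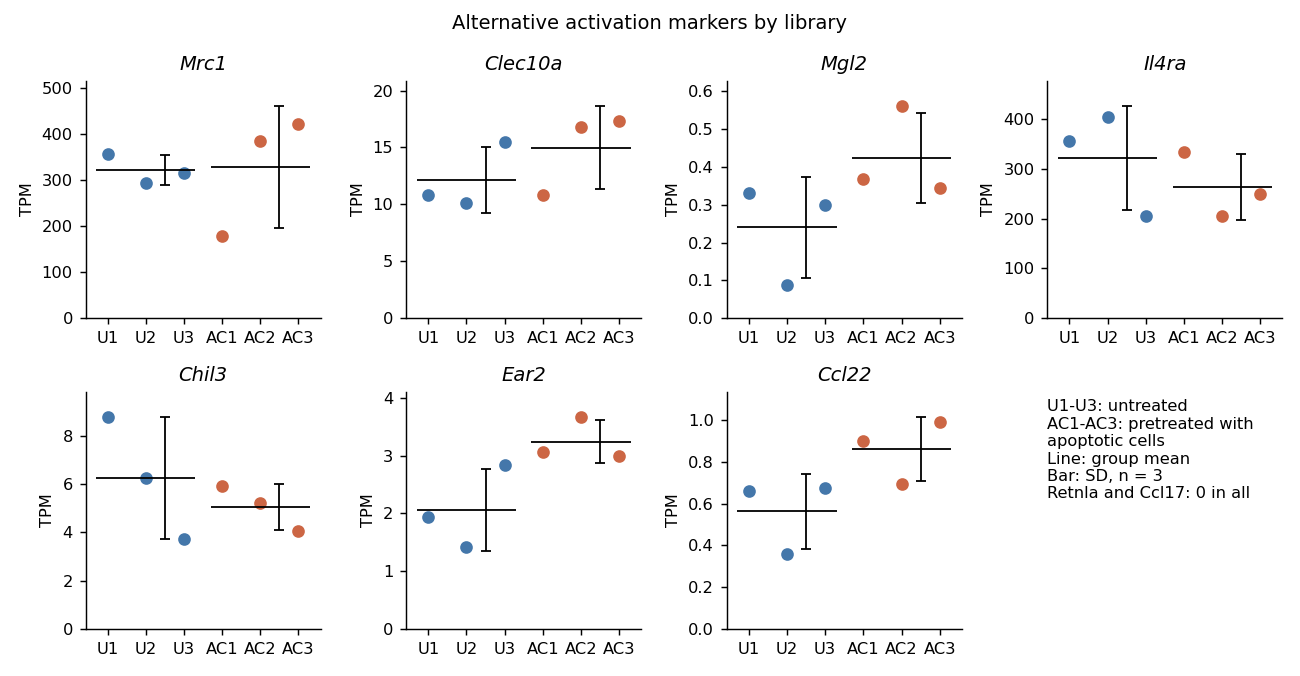
TPM (vertical axes, each starting at 0) of 7 members in untreated libraries U1 to U3 and AC libraries AC1 to AC3. Points are libraries, horizontal lines are group means and bars are SD with n = 3. Ear2, Ccl22 and Mgl2 have every AC library above every untreated one by small margins, while the groups overlap for the other 4.

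Among the receptors, Il4ra (chromosome 7, 125552120 to 125579474, mm10), which encodes the chain shared by both receptors for interleukin-4, stood at 356, 403 and 204 TPM in untreated replicates 1, 2 and 3. It stood at 334, 206 and 250 TPM in AC replicates 1, 2 and 3. Both groups thus held high and low libraries, and they overlapped. The means were 321 ± 104 and 263 ± 65.5 TPM (SD, n = 3 each), a log2 difference of -0.26 ± 0.28 (SE). The 95% interval of -0.89 to 0.38 allows an AC level between 0.538 and 1.30 times the untreated one (adjusted p = 1.0, limma). An antisense gene, Gm44876, overlaps Il4ra and did not exceed 1.93 TPM.

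Mrc1 (chromosome 2, 14229392 to 14332057), which encodes the mannose receptor CD206, stood at 356, 293 and 314 TPM in the untreated libraries and at 178, 385 and 422 TPM in the AC libraries. The AC libraries held both the lowest value and the 2 highest ones. The means were 321 ± 32.1 and 328 ± 132 TPM (SD, n = 3 each), so the spread was wider after AC pretreatment. The log2 difference was -0.06 ± 0.30, with a 95% interval of -0.76 to 0.63 (adjusted p = 1.0, limma). Without AC replicate 1 it was 0.33, and without untreated replicate 1 it was 0.015. The order of the libraries by Mrc1 was the same as their order by the balance of long and short genes, and Mrc1, with 6371 exon bases, is 1 of the long genes. Il4ra, with 6002 exon bases, is also a long gene and did not follow that order. It was at 334 TPM in AC replicate 1 and at 250 TPM in AC replicate 3. With the trend of each library with exon length removed, the Mrc1 difference was 0.012 ± 0.21. The paralog Mrc2 did not exceed 0.129 TPM.

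**Figure D2:**
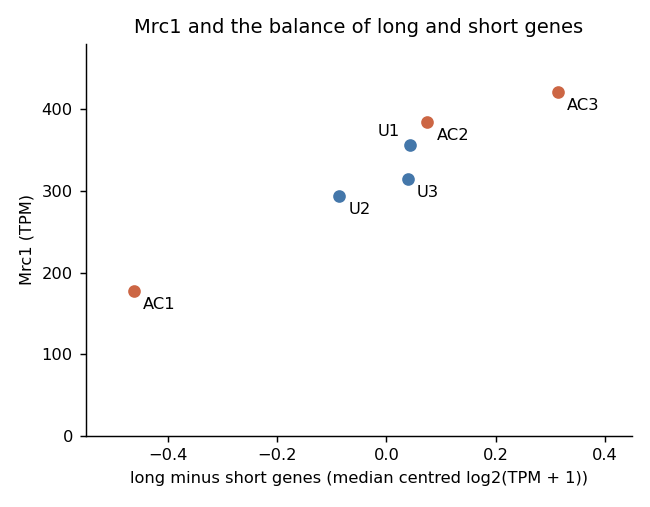
Mrc1 level in TPM (vertical axis) against the median centred log2(TPM + 1) of long genes minus that of short genes (horizontal axis), 1 point per library, blue for untreated and orange for AC. AC replicate 1 is lowest on both axes (178 TPM and -0.46) and AC replicate 3 highest on both (422 TPM and 0.31).

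Clec10a (chromosome 11, 70156197 to 70170834) and Mgl2 (chromosome 11, 70130329 to 70137550) encode galactose-type lectin receptors and lie 18.6 kb apart with 0 protein-coding genes between them. Clec10a stood at 10.8, 10.1 and 15.5 TPM in the untreated libraries and at 10.8, 16.8 and 17.3 TPM in the AC libraries. The groups overlapped, with means of 12.1 ± 2.93 and 15.0 ± 3.63 TPM (SD, n = 3 each) and a log2 difference of 0.28 ± 0.24 (95% interval -0.27 to 0.82, adjusted p = 1.0, limma). Its neighbour Mgl2 had far fewer reads in the same libraries, 5, 2 and 4 in untreated and 7, 8 and 5 in AC libraries. These gave 0.332, 0.0882 and 0.299 TPM against 0.369, 0.560 and 0.343 TPM. Mgl2 was under the limit for testing, which was 1 TPM in at least 3 libraries. Clec10a was above it in all 6 libraries. Because the 2 genes are close paralogs, reads of 1 can be assigned to the other, and how such reads were treated is not stated in the labels used here.

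Il4ra and Clec10a sorted the libraries the same way with opposite sign. Untreated replicates 1 and 2 and AC replicate 1 were high for Il4ra, at 334 to 403 TPM, and low for Clec10a, at 10.1 to 10.8 TPM. Untreated replicate 3 and AC replicates 2 and 3 were low for Il4ra, at 204 to 250 TPM, and high for Clec10a, at 15.5 to 17.3 TPM. The Il4ra level was 31.0 to 39.9 times that of Clec10a in the first set and 12.2 to 14.4 times in the second, and each set held libraries of both groups. The first set was also the 3 libraries with the most reads, at 22584885 to 32649083 reads, where the other 3 had 19330345 to 21352180 reads. The sets were recognised from these values, so no test was made between them, and the part of depth was not tested. Trophoblast transcripts were split between the sets, being present in AC replicate 2 and at 0 in replicate 3 of both groups.

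**Figure D3:**
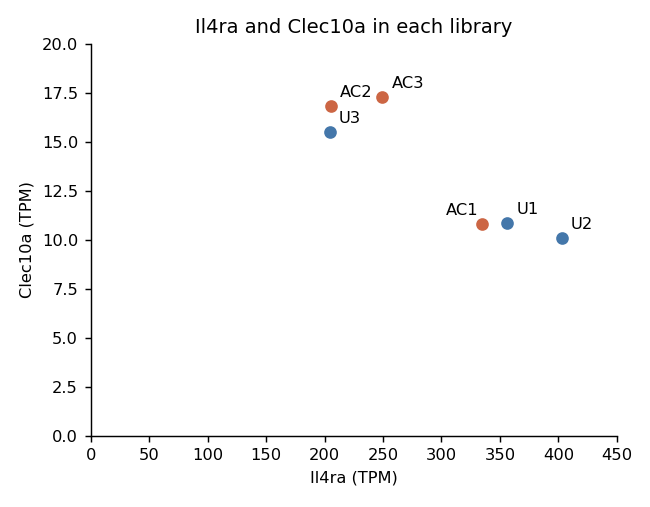
Clec10a level against Il4ra level, both in TPM with axes from 0, 1 point per library, blue for untreated (U) and orange for AC. U1, U2 and AC1 lie at 334 to 403 TPM of Il4ra and 10.1 to 10.8 TPM of Clec10a, and U3, AC2 and AC3 at 204 to 250 and 15.5 to 17.3 TPM.

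The secreted effectors were low or silent. Chil3 (chromosome 3, 106147554 to 106167564), which encodes the chitinase-like protein Ym1, stood at 8.78, 6.28 and 3.74 TPM in the untreated libraries and at 5.95, 5.21 and 4.05 TPM in the AC libraries. The AC values lay within the untreated range. The means were 6.27 ± 2.52 and 5.07 ± 0.954 TPM (SD, n = 3 each), a log2 difference of -0.21 ± 0.29 (95% interval -0.87 to 0.45, adjusted p = 1.0, limma). Without untreated replicate 1 the difference was 0.034. Its close paralog Chil4 had 0 TPM in all libraries, and Chil1 did not exceed 0.298 TPM. The treatment of reads shared between Chil3 and Chil4 is likewise not stated.

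Retnla (chromosome 16, 48842551 to 48844461), which encodes RELM alpha, a secreted protein also called Fizz1, had 0 reads in all 6 libraries. With 3 reads as the limit that a count of 0 allows, its level was at most 0.462 to 0.784 TPM, depending on library depth. These limits cover counting error only. The paralog Retnlg, known from neutrophils, reached 0.744 TPM, and Retnlb had 0 TPM.

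Ear2 (chromosome 14, 44102654 to 44103534), which encodes a ribonuclease of the eosinophil-associated family, had 10, 11 and 13 reads in the untreated and 20, 18 and 15 reads in the AC libraries. These gave 1.93, 1.41 and 2.83 TPM against 3.07, 3.67 and 3.00 TPM. All AC libraries were above all untreated ones, and among all genes tested 0.936% had AC libraries higher without overlap. Groups without overlap in either direction made up 4.42% of the genes tested. Among genes under the limit for testing with reads in all 6 libraries, 3.98% had AC libraries higher without overlap. The means were 2.06 ± 0.718 and 3.24 ± 0.367 TPM (SD, n = 3 each), a log2 difference of 0.50 ± 0.25 with a 95% interval of -0.07 to 1.06 (adjusted p = 1.0, limma). The closest libraries of the groups, replicate 3 of each, differed by 0.169 TPM, less than the 0.200 to 0.218 TPM that 1 read was worth in them. Pooled by group, 34 untreated reads (95% exact Poisson interval 23.5 to 47.5) and 53 AC reads (39.7 to 69.3) fell on Ear2, from a smaller total in the AC group. These intervals cover counting error only. In replicates 1 and 2 alone the difference was 0.71 ± 0.29, and in replicate 3 alone it was 0.062.

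Ear2 is a marker of eosinophils as well as of macrophages. Of 5 eosinophil markers, the granule protein gene Prg2 stood at 0.699 to 4.86 TPM, with means of 3.62 in untreated and 1.85 TPM in AC libraries, and Siglecf at 0.593 to 1.22 TPM. The granule protein gene Epx and the receptor gene Il5ra had 0 TPM in all untreated libraries and at most 0.0525 and 0.0804 TPM in AC libraries. The 5 markers summed to 200 to 233 TPM in untreated and 173 to 244 TPM in AC libraries, nearly all of it the chemokine receptor gene Ccr3, at 169 to 242 TPM. The paralog Ear1 did not exceed 0.197 TPM, and Ear6 and Ear10 had 0 TPM. How reads shared between these paralogs were treated is not stated, so the levels of Ear2 and its paralogs are uncertain. Gm49101, on the opposite strand across Ear2, had at most 3 reads.

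The chemokines Ccl17 and Ccl22 attract T cells through the receptor CCR4, and their genes lie 58.8 kb apart on chromosome 8 with 1 protein-coding gene, Cx3cl1, between them. Ccl17 (94810453 to 94812036) had 0 reads in all 6 libraries, which limits its level to 0.539 to 0.914 TPM. Ccl22 (94745590 to 94751699) had 11, 9 and 10 reads in the untreated and 19, 11 and 16 reads in the AC libraries. These gave 0.658, 0.357 and 0.673 TPM against 0.901, 0.693 and 0.989 TPM, means of 0.563 ± 0.178 and 0.861 ± 0.152 TPM (SD, n = 3 each). All AC libraries were above all untreated ones, by 0.0195 TPM between the closest pair, where 1 read was worth 0.0630 to 0.0673 TPM. The same held for Mgl2, by 0.0112 TPM where 1 read was worth 0.0664 to 0.0687 TPM. Of 2411 genes that were under the limit for testing and had reads in all 6 libraries, 3.98% had AC libraries higher without overlap. Pooled reads of Ccl22 were 30 in untreated (95% exact Poisson interval 20.2 to 42.8) and 46 in AC libraries (33.7 to 61.4), and those of Mgl2 were 11 (5.49 to 19.7) and 20 (12.2 to 30.9), so the intervals overlapped for both.

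Dendritic cells are a known source of Ccl17, Ccl22 and Mgl2. The 9 dendritic cell markers summed to 8.15 to 15.9 TPM in untreated and 9.29 to 12.1 TPM in AC libraries, so these sums overlapped, and 5 of the 9, among them the dendritic cell factor Zbtb46, stayed below 1 TPM in all libraries. The lectin gene Cd209a, also among those 5, did not exceed 0.297 TPM. Of the markers outside the 5, Ccr7 stood at 3.40 to 8.23 TPM and Siglech at 0.972 to 3.54 TPM. Xcr1 stood at 0.395 to 1.91 TPM and Clec9a at 0.480 to 1.27 TPM. The receptor gene Ccr4 reached 0.178 TPM in AC replicate 1. Of 10 thymocyte and T cell markers, 9 stayed below 1 TPM in all libraries, and the remaining one, Cd4, stood at 9.48 to 16.8 TPM. In bulk RNA, fewer cells of a type and less RNA per cell cannot be told apart.

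Of the 9 members, 5 passed the limit on low values and 0 of the 5 were called in either direction (0% of all genes were called). Of the 5, Clec10a and Ear2 had higher and Il4ra, Mrc1 and Chil3 lower means of log2(TPM + 1) in AC libraries. Their median difference was -0.06, against -0.07 over all genes tested, and with median-of-ratios scaling it was 0.0068 with Mrc1 on the higher side. Leaving out 1 library moved this median between -0.09, without AC replicate 2, and 0.33, without AC replicate 1. In replicate 3 alone all 5 were higher in the AC library, by a median of 0.15, while in replicates 1 and 2 their median was -0.30. All genes tested turned the same way, with medians of 0.05 in replicate 3, where 7061 of 12603 were higher, and -0.13 in replicates 1 and 2. The sign thus differed between these sets of libraries for Mrc1 (-0.30 and 0.42), Chil3 (-0.36 and 0.09) and Il4ra (-0.53 and 0.29). It did not for Clec10a (0.34 and 0.15) or Ear2. The replicate 3 values set 1 library against 1 library and carry no error, so a difference in sign may be variation between libraries.

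**Figure D4:**
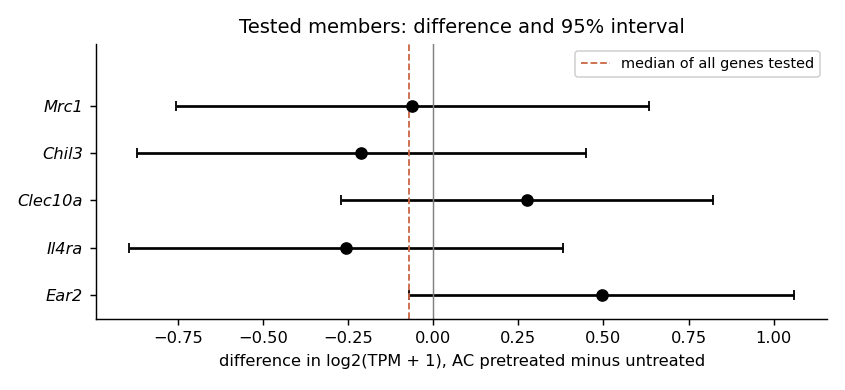
Difference in log2(TPM + 1), AC pretreated minus untreated (horizontal axis), of the 5 tested members with the 95% interval of limma-trend (bars). All 5 intervals include 0, and the dashed line marks the median of all genes tested at -0.07.

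The remaining genes of the pathway gave 0 calls in either direction among 42 tested of 71 listed, where 0% of all genes were called. Of the 42, 20 had higher and 22 lower means after AC pretreatment, with a median log2 difference of -0.02, against 70.6% with lower means and a median of -0.07 over all genes. Median-of-ratios scaling gave 23 higher and 19 lower. The cytokine gene Il13 had 0 TPM in all libraries. Il4 was listed at 13.4 to 14.7 TPM in the untreated group and at 11.7 to 17.9 TPM in the AC group, and differed by 0.02 ± 0.19. Whether counting used strand, and how it treated reads shared between genes, is not stated, so the Il4 level is uncertain. Partners of Il4ra in the receptor were present in both groups. Il2rg, the common gamma chain gene, averaged 257 ± 39.4 and 242 ± 44.4 TPM, and Il13ra1 averaged 10.1 ± 1.69 and 10.4 ± 3.27 TPM (SD, n = 3 each). The decoy receptor gene Il13ra2 had 0 TPM.

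Signalling genes downstream of the receptor had lower means in 11 of 11 tested members, with a median difference of -0.15 and 0 calls. Stat6 averaged 217 ± 27.8 and 195 ± 25.8 TPM (SD, n = 3 each), a difference of -0.15 ± 0.16, and the kinase gene Jak1 differed by -0.15 ± 0.21. The phosphatase genes Ptpn6 and Ptpn1, which encode brakes on cytokine receptor signalling, differed by -0.23 ± 0.16 and -0.20 ± 0.14. The count depended on scaling and on single libraries. It was 9 of 11 with median-of-ratios scaling, where the median over all genes was -0.008, and 8 of 11 without untreated replicate 1. In replicate 3 alone 1 of 11 was lower.

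Transcription factors and chromatin regulators of the programme had 6 of 11 tested members with higher means, a median of 0.02 and 0 calls. Cebpb, a transcription factor gene needed for Arg1 expression, stood at 146, 169 and 121 TPM without AC and at 234, 160 and 205 TPM after AC pretreatment. Its groups overlapped, and the difference was 0.46 ± 0.19 with a 95% interval of 0.03 to 0.88 that is not adjusted for the number of genes (adjusted p = 1.0, limma). Myc differed by 0.51 ± 0.28. Pparg, the gene of a lipid-sensing nuclear receptor, averaged 90.4 ± 17.0 and 92.9 ± 25.4 TPM, while Irf4 and Klf4 were low, at means of 1.33 and 3.51 TPM without AC and of 1.25 and 3.27 TPM after it.

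Other target genes of interleukin-4 and interleukin-13 had higher means in 12 of 17 tested members, with a median of 0.09 and 0 calls. In replicate 3 alone 8 of 17 were higher. Leaving out 1 library moved the median between 0.008, without AC replicate 2, and 0.31, without AC replicate 1. Without AC replicate 1, 9 of the 17 had an unadjusted p under 0.05 (limma), where 797 of 12603 genes tested did. In that setting 0 genes were called, and the median over all genes was 0.009. Arg1, which encodes arginase 1, did not exceed 0.437 TPM in any library and was not tested. Il1rn, the gene of a secreted inhibitor of interleukin-1 signalling, differed by 0.42 ± 0.19, and Atp6v0d2, a proton pump subunit gene, by 0.56 ± 0.39. Atp6v0d2 stood at 181, 187 and 412 TPM without AC and at 217, 504 and 408 TPM after it, low in the same 3 libraries in which Clec10a was low. Ch25h, which encodes cholesterol 25-hydroxylase, went the other way at 18.2, 15.2 and 9.93 TPM without AC and at 8.74, 7.71 and 4.35 TPM after it. Every AC library was below every untreated one for Ch25h, where 4.42% of all genes tested had groups without overlap in either direction. Its difference of -0.97 ± 0.29 did not pass (adjusted p = 1.0, limma). Chst7, a sulfotransferase gene, differed by -0.38 ± 0.25.

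**Figure D5:**
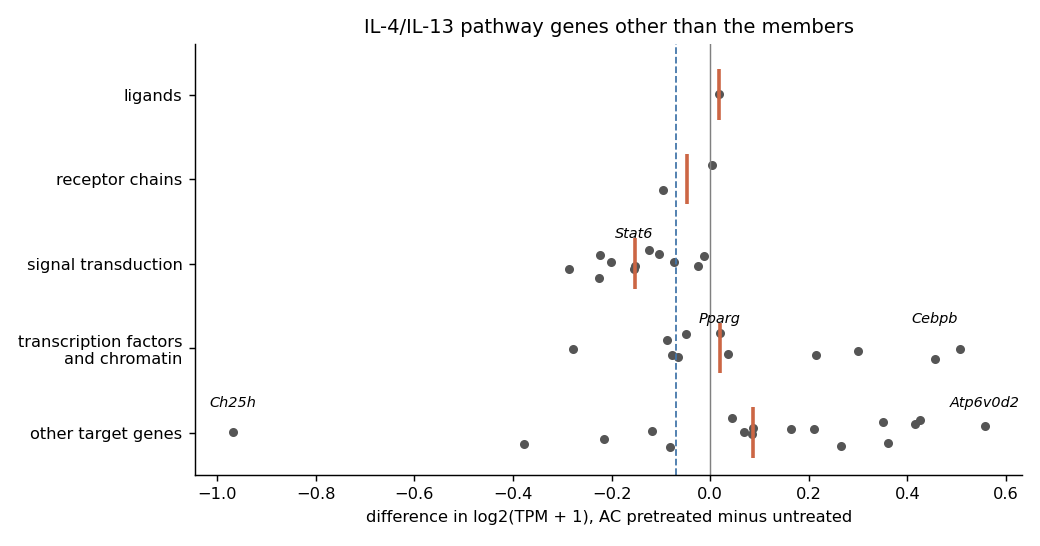
Difference in log2(TPM + 1), AC pretreated minus untreated (horizontal axis), of the 42 tested pathway genes by role, with vertical bars at the median of each role and a dashed line at the median of all genes (-0.07). All 11 signalling genes lie below 0, and 12 of 17 other target genes above it.

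Over the 6 libraries the members had different closest companions among 8715 genes of at least 5 TPM, measured by Pearson r on log2(TPM + 1) and given as a description. The gene closest to Mrc1 was Nup153 (r = 0.998), and 1468 genes had r above 0.9 with Mrc1. Closest to Clec10a was Dio2 (0.991), closest to Il4ra was Mus81 (0.993) and closest to Chil3 was Dhrs11 (0.995), with 108, 153 and 140 genes above 0.9. Among genes of few reads, Ear2 was closest to F10 (0.982), Mgl2 to Creg1 (0.930) and Ccl22 to Riiad1 (0.907). The points of each r share depth, scaling and the library features given above.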

How the data were processed

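Per the labels' protocols, poly(A) RNA libraries were sequenced as paired-end Illumina reads, and mm10, featureCounts 2.0.3, Subread and STAR 2.7.10a appear in the submitters' processing notes without a role or order. The authors deposited a table labelled TPM with 1 signal column per library, and its columns sum to 54732 to 92831 (0 columns unused). Multiplied by GENCODE M21 exon length and divided by 8.57, this deposited signal gave whole reads (tolerance 0.02) for 98.6% of 20661 genes under 2000 reads, so it is per exon base and unscaled for depth. The design had assumed TPM, so columns were rescaled to sum to 1000000 and the planned test kept. Genes with at least 1 TPM in 3 libraries were tested on log2(TPM + 1) with limma 3.58.1 (R 4.3.3, eBayes with trend, 2-sided, Benjamini-Hochberg, threshold 0.05), with a pseudocount of 1, which understates changes of low genes. The test was tried on simulated counts that held no trend with exon length, and no result here rests on that trial. Intervals on reads are exact Poisson at 95%. Python 3.11.15, pandas 2.3.3, scipy 1.17.1 and matplotlib 3.10.9 were used.

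The members and lists were chosen with earlier results of these data known. Named pathway genes were the 4 of smallest p in each direction, 8 fixed ones and close paralogs. The other genes named, and the sets of libraries described for Il4ra and Clec10a, were chosen after their values were seen. Alternatives changed the pseudocount, filter, scaling, variance model and libraries used, and those added after seeing the data were voom on recovered reads and removal of trends with exon length.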

Additional observations from a re-analysis of the deposited data

How the results depend on the processing

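No alternative called a member, and adjusted p values of the 5 tested members lay between 0.775 and 1.0 by limma. Of all genes 0 were called in each alternative other than limma without trend, which called 1, the small RNA gene Gm22279. Leaving out 1 library turned the sign for 2 of 5 tested members, Mrc1 (-0.29 to 0.33) and Chil3 (-0.49 to 0.034), and for 6 of 15 named pathway genes: Il13ra1 (-0.20 to 0.23), Pparg (-0.18 to 0.22), Il2rg (-0.22 to 0.044), Jak1 (-0.30 to 0.094), Irf4 (-0.21 to 0.073) and Klf4 (-0.20 to 0.042). It left the sign of Clec10a (0.16 to 0.48), Il4ra (-0.55 to -0.06) and Ear2 (0.34 to 0.67), and of the untested Ccl22 (0.16 to 0.32) and Mgl2 (0.11 to 0.26). In replicate 3 alone, with no test, values were 0.42 for Mrc1, 0.092 for Chil3, 0.29 for Il4ra, -0.014 for Atp6v0d2, 0.073 for Ptpn1, -0.19 for Il13ra1, 0.18 for Stat6, 0.10 for Jak1 and -0.26 for Pparg, and the pathway median was 0.11. Median-of-ratios scaling put Mrc1 at 0.0068. Removal of trends with exon length put Mrc1 at 0.012 and Irf4 at 0.011. The causes were not tested.

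With the replicate number as a block, 0 genes and 0 members were called (225 genes at an unadjusted p under 0.05, against 164 without the block). Deviations of same-numbered libraries correlated at -0.06, 0.01 and 0.17, and those of differently numbered libraries at -0.34 to 0.34. The same-numbered values were not all above 0.1, and the planned fit, which had no block, was kept. The trophoblast and erythroid sums were nevertheless split by replicate number. Ear2, Ccl22 and Mgl2, with at most 20 reads per library, are limited by depth.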
